A study of Mus musculus with 34 samples.

Results

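The genes described here were close to silent in the mouse small cell lung cancer (SCLC) line RP-48OVA-LLO190 cultured with DMSO for 10 d. They were expressed in that line after 10 d with bomedemstat (BOM). They were chosen in cells cultured for 10 d as protein coding genes with a mean under 1 CPM (a gene's count over the library's total count, times 1e+06) in DMSO and of at least 4 CPM in BOM. The rule left out genes of several families by name, which removed 4 of 52 genes (Rcan2, Cav1, Kcnip1 and Kcnmb1). The remaining 48 members came from 7877 protein coding genes under 1 CPM in DMSO, out of 20893 protein coding genes and 30351 genes counted. All 48 were also counted in the 2 other experiments of the study. Because the BOM and DMSO levels at 10 d chose the members, those levels are given as a description with no test, and the tests use libraries that the rule did not touch.

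BOM inhibits LSD1, the product of Kdm1a, an enzyme that removes methyl groups from histone tails and works in corepressor complexes that hold lineage-foreign genes silent. SCLC is a neuroendocrine lung cancer, and its cells use LSD1 together with the repressors Insm1 and Gfi1. A level of RNA does not tell a direct from an indirect target of such a complex.

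In culture for 10 d, the SCLC line RP-48OVA-LLO190 received BOM (n = 2 libraries), DMSO, the solvent (n = 3), BOM with interferon gamma (IFNg) for the last 48 h (n = 2) or DMSO with IFNg for the last 48 h (n = 3). In a 96 h experiment the lines RP-116, RP-48 and G8545 each gave 1 library with BOM and 1 with DMSO. RP-48OVA-LLO190 was also grown as tumors in the flank of mice, labelled 16 d, that received BOM (n = 4), vehicle (n = 5), BOM plus an antibody against the checkpoint receptor PD-1 (n = 4) or that antibody alone (anti-PD1, n = 5). The 10 d cultures and the tumors therefore rest on 1 line, the tumors also hold host cells, and nothing in the labels tells separate cultures from repeat libraries at 10 d, so p-values there measure only the spread between these libraries. In bulk samples fewer cells of a type and less RNA per cell cannot be told apart.

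Libraries held 5896627 to 9044398 counts at 10 d, 8712025 to 9968681 at 96 h and 5638353 to 13150056 in the tumors other than vehicle tumor 1, which held 82205546. Apart from vehicle tumor 1, a level under 1 CPM at these depths is a handful of reads in a library. Total RNA was sequenced at 10 d and polyadenylated RNA in the other experiments, so levels are not compared across experiments. The granin gene Chga, a neuroendocrine marker, averaged between 278 and 475 CPM over the groups. At 10 d the transcript Gm26917 took 83630 and 98544 CPM in BOM, against 119290 to 157790 CPM in DMSO. With TMM scaling in place of the column sum, 46 of the 48 genes met the rule, and Dglucy and Tspan11 fell just outside it.

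Promoters are shown for 4 members, to set the neighbours Aox3 and Aox4 side by side and to add Wif1 and Galnt15. Wif1 and Galnt15 were higher with BOM at 10 d and in BOM plus anti-PD1 over anti-PD1 tumors. Neither passed the test in BOM over vehicle tumors. The promoters are printed as the 250 bases that end just before the RefSeq start of the gene (GRCm38.p6, written in the direction of the gene). Capitals mark matches, on either strand, to the letters TGACTCA or TGAGTCA (bound by AP-1), CAGGTG (an E-box), TGGGAA (bound by RBPJ, the partner of NOTCH receptors) and TATAAA (the TATA box). Matches to the other letters named below were also searched, and no match overlapped another in these 4 windows.
Aox3, chr1:58112886-58113135, plus strand: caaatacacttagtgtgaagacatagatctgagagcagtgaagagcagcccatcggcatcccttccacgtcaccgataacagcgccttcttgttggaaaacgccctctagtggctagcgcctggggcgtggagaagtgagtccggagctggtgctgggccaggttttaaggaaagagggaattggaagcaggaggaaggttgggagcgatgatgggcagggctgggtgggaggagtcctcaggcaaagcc
Aox4, chr1:58210147-58210396, plus strand: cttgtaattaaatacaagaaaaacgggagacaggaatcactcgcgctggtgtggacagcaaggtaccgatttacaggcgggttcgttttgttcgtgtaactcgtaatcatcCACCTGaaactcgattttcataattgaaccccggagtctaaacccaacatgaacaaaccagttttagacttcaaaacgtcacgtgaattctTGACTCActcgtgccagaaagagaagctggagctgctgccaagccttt
Wif1, chr10:121033754-121034003, plus strand: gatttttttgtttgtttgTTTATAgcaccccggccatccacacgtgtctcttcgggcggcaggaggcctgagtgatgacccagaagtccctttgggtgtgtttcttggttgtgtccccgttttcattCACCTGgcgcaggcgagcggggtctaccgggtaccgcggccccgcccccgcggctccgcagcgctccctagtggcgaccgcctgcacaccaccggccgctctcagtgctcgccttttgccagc
Galnt15, chr14:32028853-32029102, plus strand: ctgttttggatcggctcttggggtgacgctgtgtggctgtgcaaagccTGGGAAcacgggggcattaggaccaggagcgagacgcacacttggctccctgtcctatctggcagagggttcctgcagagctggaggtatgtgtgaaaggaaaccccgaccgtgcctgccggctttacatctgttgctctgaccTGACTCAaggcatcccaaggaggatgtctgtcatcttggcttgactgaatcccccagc
Aox3 held none of these letters in the bases shown, while Aox4 and Galnt15 each held an AP-1 match, 48 and 58 bases before the start. RefSeq promoters of 300 bases (250 before and 50 after the start) were found for 36 members. The RBPJ letters stood in 14 of these 36 (38.9%), against 24.2% of 19750 protein coding promoters. The letters GGAATG (bound by TEAD factors) stood in 9 of 36 (25%), against 13.3%. Matches to AP-1 were found in 5.56% of the members, against 4.64%, to CAGGTG in 19.4%, against 19.7%, to CAGCTG in 13.9%, against 15.9%, to TATAAA in 13.9%, against 11.8%, and to AAATCAC (bound by GFI1) in 5.56%, against 2.75%. No member held the interferon element (GAAA and GAAA with any 2 bases between them) or the serum response element, which stood in 3.37% and 1.46% of protein coding promoters. A match of letters is no binding site, and a window without one says only that these letters are not in it. The members' promoters held a median of 10 CpG, against 14 in protein coding promoters.

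After 10 d the members averaged between 4.12 and 20.9 CPM in BOM, against 0.0465 to 0.986 CPM in DMSO. Of all protein coding genes under 1 CPM in DMSO, 0.660% met the same rule. BOM libraries 1 and 2 held 45 and 37 members at 4 CPM or more, and the 3 DMSO libraries held 0. Per kilobase of exon, the levels in BOM were highest for Ecrg4 (11.0 CPM per kb), Dapl1 (8.41), Wif1 (6.77), Cox6a2 (6.58) and Hs3st4 (6.54), and lowest for Nckap5 (0.359).

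The members fell into secreted and matrix proteins (9), enzymes that build glycans (4), metabolic enzymes and their relatives (7), receptors and other membrane proteins (6), channels and transporters (5), calcium, muscle and synapse proteins (7), regulators of transcription, signalling and growth (8) and 2 others (Pxdc1 and Nckap5). These classes were made by hand from the gene names. By a fixed name pattern, 1 member was a transcription factor (Tcf7l2, a partner of beta-catenin in WNT signalling) and 2 were receptors (Tlr3, a sensor of double-stranded RNA, and Adgrg6, an adhesion G protein-coupled receptor). Clcf1, a cytokine of the interleukin 6 family, was missed by the pattern for ligands.

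The heparan sulfate sulfotransferase gene Hs3st4 had 19.5 and 22.2 CPM in BOM, against 0.977, 0.655 and 1.02 CPM in DMSO. Aox3, which encodes an aldehyde oxidase, had 28.4 and 11.3 CPM in BOM, against 0.419, 0 and 1.70 CPM in DMSO. Wif1, a secreted inhibitor of WNT ligands, had 16.9 and 16.0 CPM in BOM, against 0.698, 1.15 and 0.848 CPM in DMSO. The BOM libraries lay above the DMSO libraries for each of these, and the BOM libraries differed most for Aox3. The other members with the highest CPM in BOM were the mucin-type glycosyltransferase gene Galnt15 (10.8 CPM), Ahsg, which encodes the plasma protein fetuin-A (9.98), Ecrg4 (9.90), the sulfotransferase gene Chst2 (9.85), Mrvi1 (7.79), Clcf1 (7.68), the synaptic scaffold gene Shank2 (7.41), Olfm4 (7.38) and the mitochondrial aldehyde dehydrogenase gene Aldh2 (7.37).

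No member was at 0 counts in all 3 DMSO libraries. The tetraspanin gene Tspan11 came nearest, with 5.03 and 3.20 CPM in BOM, against 0.140, 0 and 0 CPM in DMSO. That is 52 counts in BOM and 1 in DMSO, a ratio of 78.3 with a 95% Clopper-Pearson interval of 13.5 to 3152, which covers counting error only. At the edge of the rule, Dglucy (0.986), Siah3 (0.985) and S100a16 (0.968 CPM in DMSO) lay just inside, and Slc26a7 (1.01), Gpr26 (1.02) and Tacr1 (1.03) just outside. On the BOM side Tspan11 (4.12), Pgm5 (4.23) and Lrrc3b (4.24 CPM) lay just inside, and Fst (3.99), Dysf (3.97) and S100a10 (3.95) just outside.

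**Figure D1:**
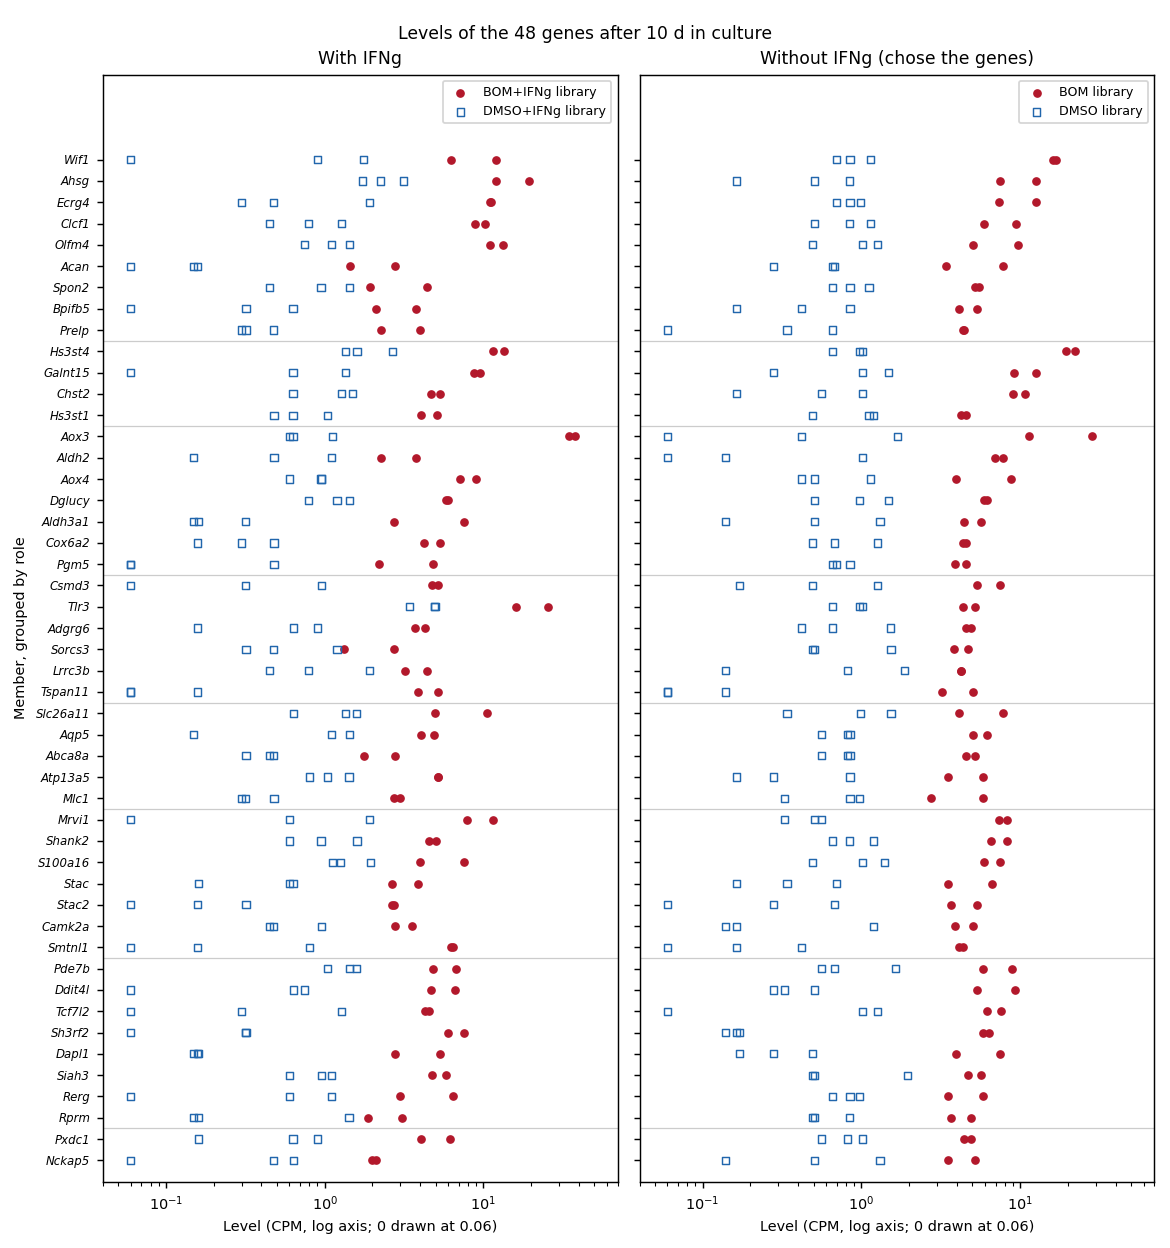
CPM (log axis) of the 48 members in each 10 d library, with IFNg on the left and without IFNg on the right; filled circles are BOM libraries, open squares DMSO libraries, and grey lines part the classes. In the left panel every BOM+IFNg library lay above every DMSO+IFNg library of the same gene, and the right panel shows the libraries that chose the genes.

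The first test asked whether the members also differed when the cells received IFNg, in 5 libraries that took no part in the choice, although all 10 d libraries share 1 estimate of the spread. They did: 47 of 48 rose with BOM plus IFNg over DMSO plus IFNg and 0 fell, while 13.0% of all 15230 genes tested rose and 10.1% fell (edgeR quasi-likelihood F test, Benjamini-Hochberg adjusted p under 0.05). All 48 members had both BOM plus IFNg libraries above all 3 DMSO plus IFNg libraries, as had 27.5% of 17628 protein coding genes with counts. However, 44 of the 48 passed the filter on low counts only with the help of BOM libraries. Counts by class given below follow from the 47 of 48 and single out no class. Over all 48 members the median difference of mean log2(CPM + 0.5) was 2.20, and it was 0.06 over 14115 protein coding genes.

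Among metabolic enzymes, Aox3 had 37.9 and 34.6 CPM in BOM plus IFNg, against 0.598, 1.12 and 0.632 CPM in DMSO plus IFNg, without overlap. Its log2 fold change was 5.44 ± 0.47 (SE), with an edgeR adjusted p of 1.97e-07. Its neighbour Aox4 had 9.02 and 7.08 CPM in BOM plus IFNg, against 0.598, 0.958 and 0.948 CPM in DMSO plus IFNg (log2 fold change 3.17, edgeR adjusted p = 5.39e-05). An antisense gene shares 472 exon bases with Aox4, and the library kit does not mark strand. Aldh2, Aldh3a1, Cox6a2, the D-glutamate cyclase gene Dglucy and Pgm5 rose as well, the first 4 by 2.29 to 4.49 log2 units. For Pgm5 the BOM plus IFNg libraries held 50 counts in all and the DMSO plus IFNg libraries 3, a ratio of 21.1 (95% interval 6.81 to 106).

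All 9 secreted and matrix genes rose. Olfm4, a secreted glycoprotein gene known from intestinal stem cells, had 13.2 and 11.1 CPM in BOM plus IFNg, against 0.747, 1.44 and 1.11 CPM in DMSO plus IFNg (log2 fold change 3.38 ± 0.38, edgeR adjusted p = 4.36e-06). Clcf1 had 8.86 and 10.2 CPM in BOM plus IFNg, against 0.448, 1.28 and 0.790 CPM in DMSO plus IFNg (log2 fold change 3.43 ± 0.40, edgeR adjusted p = 6.70e-06). Neither gene's groups overlapped. Clcf1 shares 311 exon bases with another protein coding gene model on the same strand, so the way its reads were assigned can matter. Wif1, Ahsg, Ecrg4, the matrix gene Prelp, Spon2 and Bpifb5 rose by 1.73 to 3.56 log2 units. Acan (aggrecan, of cartilage) also rose, and rested on 34 counts in BOM plus IFNg and 2 in DMSO plus IFNg, a ratio of 21.5 (95% interval 5.51 to 185).

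All 4 glycan enzymes rose. Hs3st4 had 11.4 and 13.5 CPM in BOM plus IFNg, against 1.35, 1.60 and 2.69 CPM in DMSO plus IFNg, with no overlap (log2 fold change 2.67 ± 0.29, edgeR adjusted p = 2.84e-06). Its relative Hs3st1, which encodes another heparan sulfate 3-O-sulfotransferase, rose by 2.57, Galnt15 by 3.66 and Chst2 by 2.04 log2 units.

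Of 6 receptors and membrane proteins 5 rose. Tlr3 had 15.9 and 25.7 CPM in BOM plus IFNg, against 3.44, 4.95 and 4.90 CPM in DMSO plus IFNg, without overlap (log2 fold change 2.18 ± 0.27, edgeR adjusted p = 1.00e-05). Tlr3 was also the member with the highest level in DMSO plus IFNg, and without IFNg it had 4.38 and 5.18 CPM in BOM, against 0.977, 0.655 and 1.02 CPM in DMSO. The exception was Sorcs3, a neuronal sorting receptor gene, with 2.74 and 1.33 CPM in BOM plus IFNg, against 1.20, 0.319 and 0.474 CPM in DMSO plus IFNg (log2 fold change 1.46 ± 0.63, edgeR adjusted p = 0.111). For Tspan11 the counts were 67 in BOM plus IFNg and 1 in DMSO plus IFNg, a ratio of 84.7 (95% interval 14.7 to 3395).

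All 8 regulators rose. Sh3rf2, which encodes a ubiquitin ligase with SH3 domains, had 7.57 and 5.97 CPM in BOM plus IFNg, against 0, 0.319 and 0.316 CPM in DMSO plus IFNg, so the groups lay far apart (log2 fold change 4.83 ± 0.54, edgeR adjusted p = 3.54e-06). Tcf7l2 rose by 2.98, the mTOR inhibitor gene Ddit4l by 3.46, Rprm, a cell cycle inhibitor gene of the p53 pathway, by 1.98, and the phosphodiesterase gene Pde7b by 2.04 log2 units. The 5 channel and transporter genes rose by 2.16 to 2.86 log2 units, among them the water channel gene Aqp5 (2.25) and the sulfate transporter gene Slc26a11 (2.58). All 7 calcium, muscle and synapse genes rose, among them Stac and Stac2, a pair of calcium channel modulators, and Camk2a, the kinase of excitatory synapses. Without Stac2 they rose by 1.89 to 4.21 log2 units. Stac2 rested on 41 counts in BOM plus IFNg and 3 in DMSO plus IFNg, a ratio of 17.3 (95% interval 5.51 to 87.2).

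Asked again with the rule's own limits, 36 members lay under 1 CPM in DMSO plus IFNg, and 22 of these reached 4 CPM in BOM plus IFNg, against 0.829% of the 7840 protein coding genes that were under 1 CPM. Tlr3 alone was already at 4 CPM or more in DMSO plus IFNg.

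Of 17 lists of cell type markers, 5 had a higher sum in both BOM plus IFNg libraries than in all 3 DMSO plus IFNg libraries and 2 a lower one. Markers of non-neuroendocrine and mesenchymal cells (21 genes, none at 0) summed to 794 to 1222 CPM in BOM plus IFNg and 467 to 552 CPM in DMSO plus IFNg, and 15 of 19 tested genes rose and 1 fell. Tuft cell markers (10 genes, Gfi1b and Ptgs1 at 0 in both groups and Pou2f3 at 0 in DMSO plus IFNg) summed to 385 to 415 CPM in BOM plus IFNg and 189 to 205 CPM in DMSO plus IFNg, with 2 of 5 tested genes higher and 1 lower. Endothelial markers (11 genes, Tie1 at 0 in DMSO plus IFNg) summed to 63.5 to 67.5 CPM in BOM plus IFNg and 26.2 to 34.3 CPM in DMSO plus IFNg, with 1 of 6 higher and 1 lower. The other 2 higher lists were those of B and plasma cells (119 to 151 CPM in BOM plus IFNg and 100.4 to 109 CPM in DMSO plus IFNg) and of neuroendocrine cells, of which 8 of 24 tested genes rose and 5 fell. The lower lists were those of fibroblasts (85.8 to 94.4 CPM in BOM plus IFNg and 97.3 to 111 CPM in DMSO plus IFNg) and of Schwann cells (94.2 to 106 CPM in BOM plus IFNg and 115 to 126 CPM in DMSO plus IFNg). Macrophage markers overlapped, with 9.95 to 11.6 CPM in BOM plus IFNg and 7.32 to 15.8 CPM in DMSO plus IFNg over 12 genes, and Adgre1, Ms4a7, C1qa and C1qc were at 0 in both groups. No member was in any of these lists, and their part in the members' differences was not tested.

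**Figure D2:**
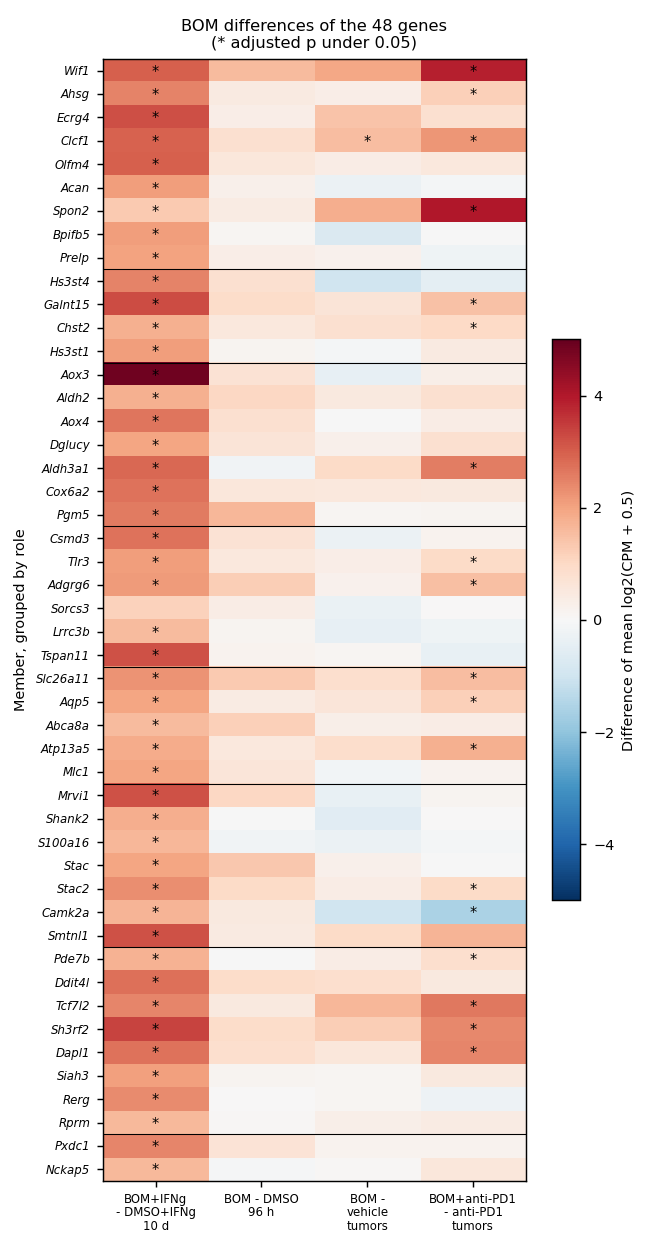
Difference in mean log2(CPM + 0.5) of each member (rows, grouped by class) in 4 comparisons (columns), each as BOM minus its own control; stars mark an edgeR adjusted p under 0.05. Of the 48 rows, 47 carry a star with IFNg at 10 d, 0 at 96 h, 1 in tumors (Clcf1) and 18 in tumors with anti-PD1, of which 17 are higher and 1 (Camk2a) is lower.

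At 96 h no member passed the test. Of the 48 members, 22 passed the low count filter, 15 of them only with the help of BOM libraries, and 0 were called in either direction by edgeR with the line as a block, as was 0% of 13333 genes. At an unadjusted p under 0.05, 9 of the 22 members tested were higher and 0 lower, against 4.34% and 1.75% of all genes tested. Regardless of the filter, 14 of 48 members were higher with BOM in all 3 lines and 0 were lower in all 3. Of 17310 protein coding genes with counts, 11.7% were higher and 8.89% lower in all 3. For Slc26a11 and Stac2 all 3 BOM libraries also lay above all 3 DMSO libraries, which held for 1.32% of these protein coding genes. For 0 members they lay below (0.878%).

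The counts were not the same in the 3 lines, a difference that was not tested. In G8545 39 members were higher with BOM, as were 48.8% of 17310 protein coding genes with counts. In RP-48 36 members were higher (46.3%) and in RP-116 20 (48.0%). In RP-116 15 members were lower (42.8%) and 13 had 0 counts in both libraries. The median difference of log2(CPM + 0.5) was 0.82 in G8545, 0.43 in RP-48 and 0 in RP-116. With 1 library per line and treatment these are values of single pairs of libraries. Many members were not silent to begin with: 27 had at least 1 CPM in DMSO in G8545, 22 in RP-48 and 11 in RP-116. By the rule's limits only Adgrg6 and Galnt15 were switched on, both in G8545, of 21 members that were under 1 CPM there (0.428% of all such protein coding genes were switched on). In RP-48 and RP-116 the count was 0, of 26 and 37 members under 1 CPM (0.0631% and 0.0249%).

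Hs3st4 and Wif1 show how the baseline differed. Hs3st4 had 19.8 CPM in BOM against 8.03 CPM in DMSO in RP-116, 41.3 against 35.4 in RP-48 and 175 against 90.4 in G8545 (log2 fold change 0.78 ± 0.20, edgeR unadjusted p = 0.00531, adjusted p = 0.464). Wif1 had 18.7 CPM in BOM against 10.6 CPM in DMSO in RP-116, 2.41 against 1.29 in RP-48 and 248.8 against 25.6 in G8545 (log2 fold change 1.96 ± 0.50, edgeR adjusted p = 0.440). Both were higher in 3 of 3 lines, and both had far more than 1 CPM in DMSO in at least 1 line. The G8545 ratio of Wif1 was 9.72, with a counting interval of 8.54 to 11.1.

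The member with the lowest p at 96 h was Pgm5, a phosphoglucomutase relative found at cell junctions. It had 2.49 CPM in BOM against 1.15 CPM in DMSO in RP-116, 3.51 against 0.431 in RP-48 and 26.7 against 6.03 in G8545 (log2 fold change 2.04 ± 0.37, edgeR adjusted p = 0.239). Slc26a11 (log2 fold change 1.53), the neuronal membrane gene Csmd3 (1.01) and Aox4 (1.38) were also higher in all 3 lines, with edgeR adjusted p-values of 0.473, 0.645 and 0.769.

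Ratios of single pairs of libraries were large for further members. In RP-48, Clcf1 had 15.3 CPM in BOM and 2.7 CPM in DMSO, a ratio of 5.69 (95% counting interval 3.71 to 9.07), and Sh3rf2 13.6 and 2.59 CPM (ratio 5.27, 3.40 to 8.51), while both had about 1 CPM or less in RP-116 and G8545. In G8545, Abca8a, a gene of the ABC transporter family, had 17.3 CPM in BOM and 1.31 CPM in DMSO (ratio 13.3, 7.56 to 25.4), Aldh2 15.8 and 2.41 CPM (ratio 6.56) and Aox3 3.12 and 0.402 CPM (ratio 7.77, 2.75 to 30.3). Aldh2 was also higher with BOM in RP-116 (ratio 1.36, 1.18 to 1.57) and RP-48 (1.19, 0.684 to 2.10). Ratios in RP-116 were below 1 for Siah3 (0.501, 0.317 to 0.779), S100a16 (0.573, 0.437 to 0.748) and Camk2a (0.694, 0.572 to 0.840). These members were named after their values were seen. Without both G8545 libraries the count of members called higher was 2 (0.623% of all genes tested were), without its BOM library alone it was 3 (0.778%) and without its DMSO library alone 4 (0.782%).

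**Figure D3:**
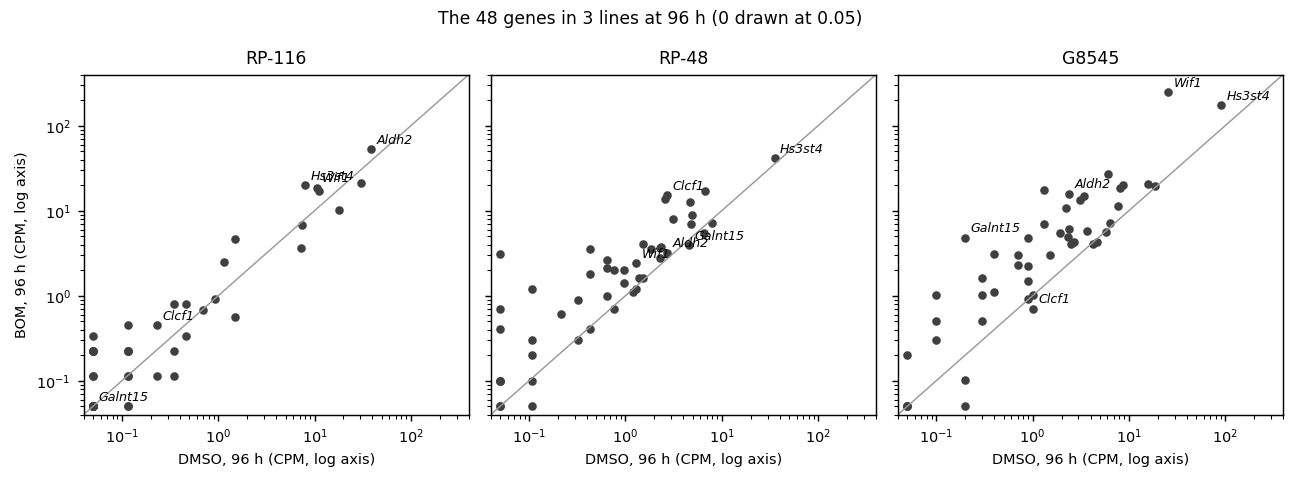
CPM with BOM (vertical, log axis) against CPM with DMSO (horizontal, log axis) at 96 h in RP-116, RP-48 and G8545; each point is 1 member and the line marks equal levels. In G8545 39 of 48 members lie above the line, in RP-48 36 and in RP-116 20, and Wif1 in G8545 lies at 248.8 CPM with BOM and 25.6 CPM with DMSO.

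Vehicle tumors 1 and 2 stood apart from the other vehicle tumors in a gene that is no member, the receptor gene Notch1. It had 80.8 to 103 CPM in BOM tumors, against 52.3 and 32.2 CPM in vehicle tumors 1 and 2 and 3.02 to 5.21 CPM in the other 3. The mean level over the 48 members, as log2(CPM + 0.5), was 1.34 to 1.54 in BOM tumors, against 1.58 and 1.28 in vehicle tumors 1 and 2 and 0.76, 1.25 and 0.73 in vehicle tumors 3, 4 and 5. By this mean vehicle tumor 2 was close to vehicle tumor 4. Vehicle tumor 1 also had the highest macrophage marker sum of its group (1622 CPM, against 555 to 658 CPM in the other vehicle tumors) and the highest skeletal muscle sum (142 CPM, with 69.3 CPM in vehicle tumor 2 and 6.92 to 9.04 CPM in the others). All tumors stayed in the group that their labels give. The pair was picked out with the members' levels known, and leaving out controls in which members are high raises the count of members that rise, so counts without these 2 tumors are a description and support nothing.

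With all tumors, 1 of the 30 members tested rose in BOM over vehicle tumors, which was Clcf1, and 0 fell. Of 14332 genes tested 5.92% rose and 8.07% fell. Of the 48 members 30 passed the low count filter, 6 of them only with the help of BOM libraries. Clcf1 had 12, 7.78, 5.72 and 12.1 CPM in BOM tumors, against 8.04, 4.64, 1.24, 2.30 and 1.24 CPM in vehicle tumors (log2 fold change 1.30 ± 0.42, edgeR adjusted p = 0.0474). The groups overlapped through vehicle tumor 1, and its call held under 10 of 27 settings, with adjusted p-values from 0.000109 to 0.126. At an unadjusted p under 0.05, 9 of the 30 members tested were higher and 3 lower, against 13.2% and 15.7% of all genes tested. In 1 member, Smtnl1, every BOM tumor lay above every vehicle tumor (5.53% of 19457 protein coding genes with counts). The median difference of mean log2(CPM + 0.5) was 0.27 over the 48 members and 0.00 over all protein coding genes.

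Wif1 had 11.7, 6.79, 9.95 and 10.3 CPM in BOM tumors, against 7.89, 9.05, 1.06, 0.153 and 1.10 CPM in vehicle tumors 1 to 5, so that only vehicle tumors 1 and 2 overlapped with BOM (log2 fold change 1.18, edgeR adjusted p = 0.179). Tcf7l2 had 24.0, 15.9, 15.8 and 25 CPM in BOM tumors, against 23.2, 10.6, 1.95, 6.28 and 1.79 CPM in vehicle tumors, with vehicle tumor 1 among the BOM tumors (log2 fold change 1.09, edgeR adjusted p = 0.148). Leaving out single vehicle tumors moved the count. Without vehicle tumor 1 alone 7 members passed the test as higher, against 9.89% of all genes (Clcf1, Tcf7l2, Galnt15, Spon2, Ecrg4, Chst2 and Slc26a11), and Lrrc3b as lower. Without vehicle tumor 2 alone 1 did (Sh3rf2), against 6.61%. Without both, 13 of the 30 members tested were higher and 2 lower (Hs3st4 and Lrrc3b). The share of all genes tested that were higher was 11.2%, against 5.92% with all tumors.

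**Figure D4:**
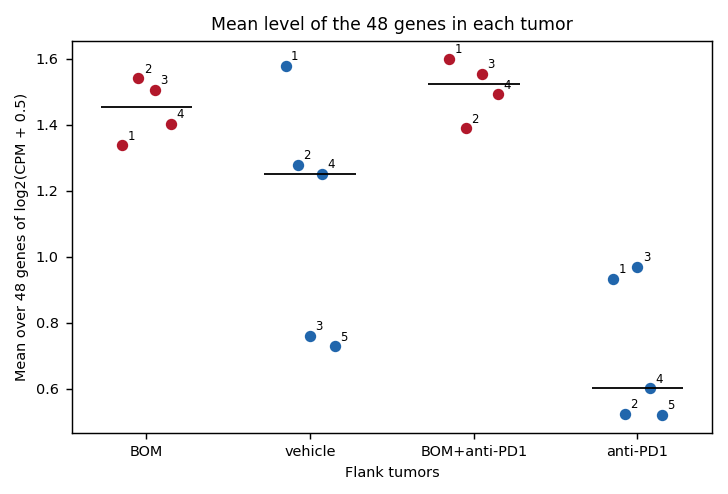
Mean over the 48 members of log2(CPM + 0.5) in each flank tumor, by group, with replicate numbers beside the points and lines at the group medians. The 4 BOM tumors lie between 1.34 and 1.54, vehicle tumor 1 lies above them at 1.58, the 4 tumors with BOM plus anti-PD1 lie between 1.39 and 1.60, and the 5 tumors with anti-PD1 alone lie between 0.52 and 0.97.

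The second tumor comparison has its own controls. The low count filter was passed by 30 of the 48 members, 6 of them only with the help of BOM libraries. Wif1 and Sh3rf2, named below, are among these 6. Aldh3a1 and Dapl1, also named below, lay under the filter's limit of 1.38 CPM in every anti-PD1 tumor. They therefore passed only through tumors of other groups. With BOM plus anti-PD1 over anti-PD1 alone, 17 of the 30 members tested rose and 1 fell, against 15.7% and 16.5% of 14332 genes tested. The counts at an unadjusted p under 0.05 were the same, 17 and 1, against 20.4% and 21.9%. In 15 members every BOM plus anti-PD1 tumor lay above every anti-PD1 tumor (11.0% of 17492 protein coding genes with counts). In 2 (Camk2a and Lrrc3b) every one lay below (8.52%). The mean over the 48 members was 1.39 to 1.60 with BOM plus anti-PD1 and 0.52 to 0.97 with anti-PD1 alone, without overlap. The median difference over all 48 members was 0.50, and 0.03 over all protein coding genes.

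Among secreted proteins, Wif1 had 16.0, 14.8, 15.2 and 16.3 CPM in BOM plus anti-PD1 tumors, against 0.476, 0.521, 0.176, 1.43 and 0.692 CPM in anti-PD1 tumors (log2 fold change 4.47 ± 0.72, edgeR adjusted p = 0.000227). Spon2, a spondin family gene, had 21.6, 22.7, 51.2 and 23 CPM in BOM plus anti-PD1 tumors, against 2.54, 1.04, 1.94, 0.860 and 0.553 CPM in anti-PD1 tumors (log2 fold change 4.41 ± 0.69, edgeR adjusted p = 0.000192). The groups lay far apart for both, and BOM plus anti-PD1 tumor 3 held the highest Spon2 level. Clcf1 rose by 2.44 log2 units and Ahsg by 1.14.

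Galnt15 had the lowest p. It had 21.3, 16.1, 20.9 and 17.8 CPM in BOM plus anti-PD1 tumors, against 6.19, 6.25, 6.68, 8.02 and 5.40 CPM in anti-PD1 tumors (log2 fold change 1.52 ± 0.23, edgeR adjusted p = 0.000149). It was above 5 CPM in every tumor, so it was raised and not switched on. The sulfotransferase gene Chst2 rose by 1.07 log2 units, and Hs3st4, the member with the highest CPM in BOM at 10 d, had 3.37, 0.957, 5.32 and 1.85 CPM in BOM plus anti-PD1 tumors, against 2.86, 3.82, 2.99, 4.58 and 4.43 CPM in anti-PD1 tumors (edgeR adjusted p = 0.497). Its groups overlapped.

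Aldh3a1, a cytosolic aldehyde dehydrogenase gene, had 3.51, 2.51, 2.73 and 2.41 CPM in BOM plus anti-PD1 tumors, against 0, 0, 0, 0.287 and 0 CPM in anti-PD1 tumors (edgeR adjusted p = 0.000536). That is 84 counts and 2 counts, a ratio of 44.4 with a 95% counting interval of 11.9 to 373. Dapl1 had 2.52, 2.63, 3.12 and 2.7 CPM in BOM plus anti-PD1 tumors, against 0, 0.347, 0.176, 0 and 0 CPM in anti-PD1 tumors (edgeR adjusted p = 0.000187), which is 83 and 3 counts and a ratio of 29.2 (9.66 to 145). Sh3rf2 had 5.61, 2.51, 4.93 and 6.82 CPM in BOM plus anti-PD1 tumors, against 0, 0.695, 0.704, 0.573 and 0.692 CPM in anti-PD1 tumors (log2 fold change 3.16 ± 0.55, edgeR adjusted p = 0.000395). None of these 3 overlapped between the groups.

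Of the 5 channel and transporter genes 3 were tested, and these 3 rose, as did 15.7% of all genes tested. They were Atp13a5 (log2 fold change 2.72), Slc26a11 (1.66) and Aqp5 (1.21). Tlr3 rose by 0.98, Adgrg6 by 1.88, Tcf7l2 by 2.71, Pde7b by 1.03 and Stac2 by 1.16. The gene that fell was Camk2a, with 1.82, 1.44, 1.56 and 1.70 CPM in BOM plus anti-PD1 tumors, against 3.49, 9.38, 4.93, 6.16 and 7.19 CPM in anti-PD1 tumors (log2 fold change -1.96 ± 0.55, edgeR adjusted p = 0.0111), without overlap. In BOM tumors Camk2a had 0.270, 8.89, 2.32 and 1.91 CPM, against 4.09, 5.02, 4.43, 5.82 and 4.54 CPM in vehicle tumors. BOM tumor 2, with 8.89 CPM, was also the BOM tumor with 1218 CPM of skeletal muscle markers (3.68 to 5.21 CPM in the other 3) and with 7.78 CPM of Cox6a2, the muscle isoform of a cytochrome c oxidase subunit (0 to 0.135 CPM in the other 3). The part of muscle RNA in these values was not tested.

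Under the rule's limits 2 members were switched on with BOM plus anti-PD1, Sh3rf2 and Wif1, of 26 under 1 CPM in anti-PD1 tumors. Of all such protein coding genes 0.658% were. In BOM over vehicle tumors 0 were, of 22 (0.0404%). On the other hand 15 members stayed under 1 CPM in the mean of all 4 tumor groups, among them Aox3, Olfm4, Acan, Csmd3 and Sorcs3. Aox3 had 0.421, 0.120, 0.389 and 0 CPM in BOM plus anti-PD1 tumors, against 0.318, 0, 0.176, 0 and 0 CPM in anti-PD1 tumors. A further 7 (Galnt15, Ahsg, Aldh2, S100a16, Aqp5, Tlr3 and Lrrc3b) had at least 4 CPM in every tumor group, so that they were expressed in tumors without BOM.

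**Figure D5:**
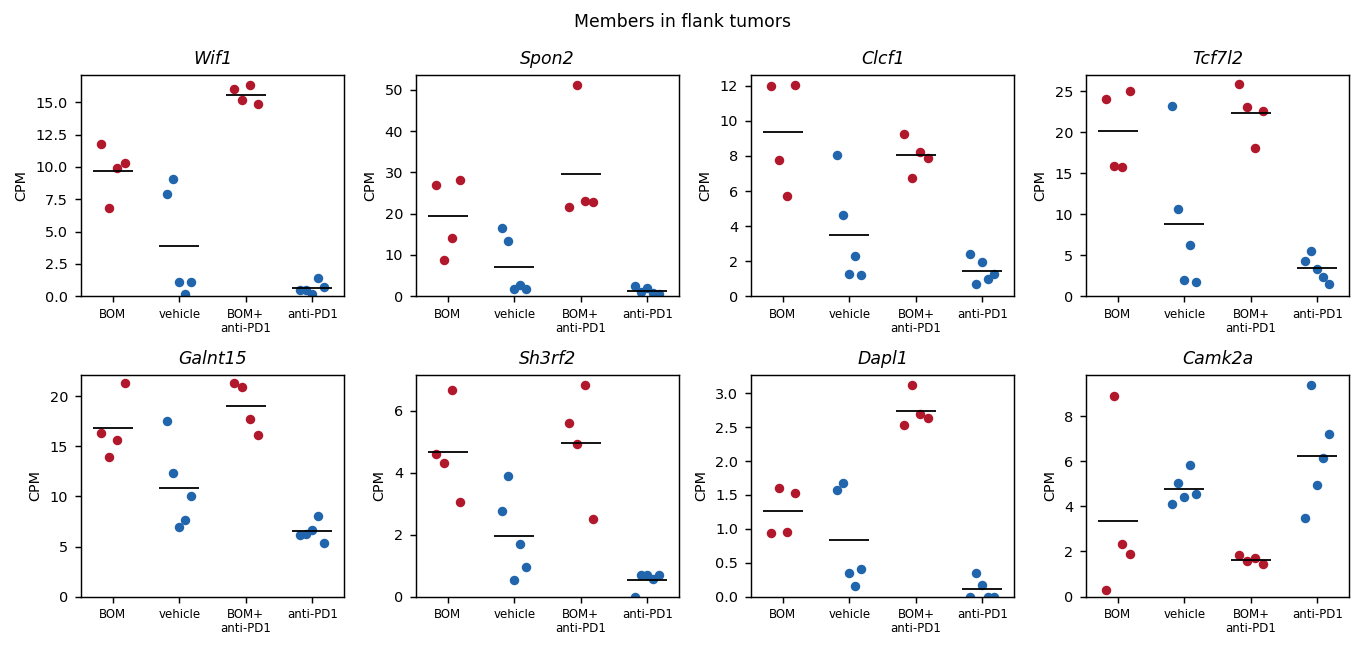
CPM of 8 members in each flank tumor, in the order BOM, vehicle, BOM plus anti-PD1 and anti-PD1; points are tumors and lines are group means. Wif1 lies between 14.8 and 16.3 CPM with BOM plus anti-PD1 and between 0.176 and 1.43 CPM with anti-PD1, Camk2a lies lower with BOM plus anti-PD1 than with anti-PD1, and vehicle tumors 1 and 2 reach BOM levels of Wif1 and Spon2.

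The interaction test did not show that the response of any member differed with anti-PD1. It called 0 of the 30 members tested, as it called 0% of all genes tested. At an unadjusted p under 0.05, 9 of the 30 had a larger difference with anti-PD1 (5.69% of all genes tested) and 0 a smaller one (2.97%). The lowest adjusted p among them was 0.381, for Dapl1. Clcf1 was the one member called in 3 of the 4 tested comparisons.

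Cell type markers moved in the tumors beside these values. In BOM over vehicle tumors, the sums of 2 of the 17 lists did not overlap. Tuft cell markers summed to 279.7 to 309 CPM in BOM tumors and 205 to 272 CPM in vehicle tumors, with 1 of 4 tested genes higher, and Schwann cell markers (8 genes) to 127 to 149 CPM in BOM tumors and 151 to 187 CPM in vehicle tumors, with 1 of 3 lower. Of neuroendocrine markers, 14 of 24 tested fell and 4 rose in BOM over vehicle tumors, and 12 of 24 fell and 4 rose with BOM plus anti-PD1 over anti-PD1. Of non-neuroendocrine and mesenchymal markers, 4 of 21 rose and 0 fell in each of these comparisons.

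With anti-PD1 the sums of 4 lists did not overlap. Tuft cell markers summed to 278 to 319 CPM with BOM plus anti-PD1 and 190 to 219 CPM with anti-PD1, with 1 of 4 tested genes higher. Endothelial markers (11 genes, none at 0) summed to 204 to 247 CPM with BOM plus anti-PD1 and 249 to 331 CPM with anti-PD1, with 1 of 11 higher and 1 lower. Schwann cell markers summed to 138 to 146 CPM with BOM plus anti-PD1 and 162 to 209 CPM with anti-PD1. Dendritic cell markers (8 genes) summed to 54.8 to 68.7 CPM with BOM plus anti-PD1 and 34.4 to 51.6 CPM with anti-PD1, with 1 of 5 tested genes higher. The sums of the remaining lists overlapped. Macrophage and monocyte markers (12 genes, none at 0 in all tumors of a group) summed to 633 to 1376 CPM with BOM plus anti-PD1 and 255 to 1210 CPM with anti-PD1 alone, with 1 of 12 genes higher and 0 lower in the test. T cell markers (9 genes) summed to 21.1 to 45.2 CPM with BOM plus anti-PD1 and 8.17 to 26.2 CPM with anti-PD1, with 2 of 9 higher, skeletal muscle markers (10 genes) to 2.94 to 174 CPM with BOM plus anti-PD1 and 5.56 to 7.39 CPM with anti-PD1, and fibroblast markers (12 genes) to 215 to 373 CPM with BOM plus anti-PD1 and 168 to 629 CPM with anti-PD1. No member was in any of these lists. Their part in the members' differences was not tested.

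The median span of the members, which the rule did not use, was longer than that of other genes. The median member spanned 59.9 kb from first to last exon, against 18.3 kb for all protein coding genes and 9.85 kb for those under 1 CPM in DMSO, while its exon length of 3613 bases was near the 3663 bases of all protein coding genes. The spans ran from 0.953 kb (Cox6a2) to 1211 kb (Csmd3), and 15 of the 48 members lay under the median of all protein coding genes. Longer exons gather more reads per molecule, and genes under 1 CPM had a median exon length of 2368 bases. The members lay on 17 chromosomes, and Aox3 and Aox4, 9.70 kb apart on chromosome 1, were the closest pair. Related genes occurred as Hs3st1 and Hs3st4, Stac and Stac2, Aldh2 and Aldh3a1 and the Aox pair. Of the 48 members 15 shared exon bases with another gene, mostly an antisense one (as for Hs3st4, Tlr3, Aox4 and Ahsg), so part of their counts is uncertain without strand.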

How the data were processed

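RNA-seq libraries of cultured SCLC cells and flank tumors were deposited as 3 tables of whole-number read counts per gene, made by the authors with STAR 2.7 and featureCounts of Subread 2.0 on mm10, per the submitters' processing notes. All 34 sample columns were mapped to groups by their labels. The members and gene lists were chosen with earlier results of these data known. Named genes were the 12 with the highest CPM in BOM, the 3 nearest each side of each limit, up to 6 called members with the lowest p per comparison and every one called lower, and, at 96 h, those higher in 3 of 3 lines. Genes named beyond that rule were chosen after their values were seen.

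CPM is a count over the column sum. Tests were run on the deposited counts of each table with edgeR 4.0.16 (R 4.3.3): TMM scaling, filterByExpr, the quasi-likelihood F test, all groups of a table in 1 fit, the line as a block at 96 h, and Benjamini-Hochberg adjustment over all genes tested. Residual degrees of freedom were 6 at 10 d, 2 at 96 h and 14 in tumors. The code was tested on simulated counts. Medians use log2(CPM + 0.5). Counting intervals are exact Clopper-Pearson intervals. DESeq2 1.42.0, limma 3.58.1 with voom, other scalings, filters, rules and left-out libraries were alternatives. Replicate numbers were not used to pair the samples in the main fits. Promoters came from RefSeq tables (GRCm38.p6), which hold 36 of the 48 genes.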

Additional observations from a re-analysis of the deposited data

Results flagged for a closer look

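In 36 groups of 4 or 5 tumors looked at for the named members, 3 had a tumor whose gap to the nearest other tumor passed Dixon's critical value at the 95% level, a count that chance alone can give. Spon2 had 51.2 CPM in BOM plus anti-PD1 tumor 3, next to 21.6 to 23 CPM in the other 3 tumors of that group. Sh3rf2 had 0 CPM in anti-PD1 tumor 1, next to 0.573 to 0.704 CPM in the other 4. Aldh3a1 had 0.287 CPM (2 counts) in anti-PD1 tumor 4 and 0 in the other 4.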

How the results depend on the processing

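The 20 named gene results kept their direction under the alternatives run. With IFNg and with anti-PD1 they also stayed called, Clcf1 in BOM over vehicle tumors lost its call in 17 of 27, and at 96 h 7 of 95 alternatives gave a call. With IFNg 39 to 47 members rose when 1 library was left out, against 8.11% to 13.8% of all genes tested. By the looser rule (at least 2 CPM in BOM) 113 of 170 rose, against 13.0%. With anti-PD1 these counts were 14 to 18 (13.0% to 17.0% of all genes tested) and 43 of 170 (15.7%). At 96 h DESeq2 called 1 member (0.420% of all genes), no low count filter 9 (1.12%), and leaving out libraries 0 to 4 (0% to 0.782%). In BOM over vehicle tumors DESeq2 and limma voom each called 2 (7.70% and 7.97% of all genes). No filter called 0 (2.27%), only the groups compared 0 (4.26%) and the looser rule 5 of 170 (5.92%). Leaving out 1 tumor called 0 to 7 (3.11% to 9.89%), and leaving out vehicle tumors 1 and 2 called 13 (11.2%). For these the cause was not tested.

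At a limit of 2 CPM, 36 of the 36 members under 1 CPM in the control were switched on with IFNg. In RP-48 6 of 26 were, in G8545 6 of 21, in tumors 2 of 22 and with anti-PD1 6 of 26. The share of all protein coding genes at 2 CPM is not given, so these counts are a description. By the looser rule, at 4 CPM, 1 was switched on in RP-48 and 4 with anti-PD1 (0.0631% and 0.658% of all protein coding genes under 1 CPM). Without vehicle tumors 1 and 2, 1 of 24 members under 1 CPM was switched on in tumors (0.504% of all such protein coding genes). The median difference with IFNg was 2.80 with a pseudocount of 0.1, 1.33 with 2 and 1.63 by the looser rule, and with anti-PD1 it was 0.99 with a pseudocount of 0.1. The stricter rule (under 0.5 CPM in DMSO and at least 8 in BOM) left no gene and gave no value.

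With the replicate number as a block, 47 members rose with IFNg (13.6% of all genes tested), 2 in tumors (4.71%) and 14 with anti-PD1 (13.7%). The interaction test called 0 (0%). After group means were taken out, correlations of same-numbered samples ran from -0.242 to 0.439. Samples with different numbers were not compared, so these values cannot tell whether a number marks a pair. At 96 h, without the line as a replicate block, 0 members were called (0% of all genes tested). Low counts limit the members near silence most.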

Other observations

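Aox1, the gene before Aox3 in the cluster on chromosome 1 and no member because its DMSO mean was above 1 CPM, was looked up after the members' values were seen. It had 20.9 and 28.6 CPM in BOM plus IFNg, against 1.05 to 2.37 CPM in DMSO plus IFNg, without overlap. In tumors it had 1.85 to 4.67 CPM with BOM plus anti-PD1, against 0.318 to 0.573 CPM with anti-PD1. Aox2, at the far end of the cluster, had 0 and 0.111 CPM in BOM plus IFNg, against 0 in all 3 DMSO plus IFNg libraries. These values are given as a description, without a p-value.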
